A study of Mus musculus with 9 samples.

Results

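The SOCS family of cytokine signalling suppressors, Socs1 to Socs7 and Cish, was followed in immortalized mouse macrophages (the IMM cell line, genotype WT) before and during stimulation with lipopolysaccharide (LPS). The members were found by gene symbol, and 8 of 8 were present among the 55450 genes of the count table. All 8 also passed the filter on low counts, which left 14246 genes for testing. Cells in a serum-containing medium received 100 ng/mL LPS, a component of the outer membrane of Gram-negative bacteria that is sensed through Tlr4, for 0, 30 or 60 min. Each time has 3 libraries of ribosome-depleted total RNA, named biological replicates in the design text, with 0 min as the control. No library without LPS at 30 or 60 min was analysed here, so LPS, handling and elapsed time cannot be told apart. Total RNA holds unspliced transcripts next to mature mRNA, and in bulk RNA more cells with a transcript and more transcript per cell cannot be told apart.

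SOCS proteins carry an SH2 domain, which binds phosphorylated tyrosines on cytokine receptors or kinases, and a C-terminal SOCS box, which recruits elongins and a cullin ubiquitin ligase. Socs1 and Socs3 in addition hold a short kinase inhibitory region that blocks JAK kinases directly. Several SOCS genes are targets of the STAT factors whose activation their proteins limit, which makes them a textbook case of negative feedback. In macrophages Socs1 is known for limiting interferon responses and Socs3 for limiting IL-6 signalling through the receptor chain gp130, the product of Il6st.

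The promoters of Cish, Socs3 and Socs1, the members that rose by more than 2-fold, are shown because members of this family are known STAT and interferon target genes. Of the 8 members, windows of 4 (these and Socs4) from the RefSeq table for GRCm38.p6 were searched. Each window runs from 250 bases before to 50 bases after an annotated start. Socs2, Socs5 and Socs7 had no window there, and Socs6 was left out of the search. Capitals mark matches to the STAT motif TTCNNNGAA in Cish and Socs3, and to the interferon regulatory factor motif GAAANNGAAA in Socs1, each searched on both strands. The windows are chr9:107296409-107296708 on the plus strand for Cish, chr11:117969317-117969616 on the minus strand for Socs3 and chr16:10785487-10785786 on the minus strand for Socs1.
Cish: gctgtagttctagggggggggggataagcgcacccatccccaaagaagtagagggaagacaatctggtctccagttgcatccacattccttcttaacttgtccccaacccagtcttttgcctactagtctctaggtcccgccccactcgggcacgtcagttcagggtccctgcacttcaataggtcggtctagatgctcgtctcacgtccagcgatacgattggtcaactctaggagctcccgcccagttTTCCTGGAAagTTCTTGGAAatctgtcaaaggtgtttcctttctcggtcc
Socs3: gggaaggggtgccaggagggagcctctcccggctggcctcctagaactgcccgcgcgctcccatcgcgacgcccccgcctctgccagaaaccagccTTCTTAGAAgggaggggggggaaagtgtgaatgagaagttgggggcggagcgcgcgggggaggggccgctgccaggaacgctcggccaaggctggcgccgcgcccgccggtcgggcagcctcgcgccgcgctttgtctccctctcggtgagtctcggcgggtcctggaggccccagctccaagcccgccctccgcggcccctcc
Socs1: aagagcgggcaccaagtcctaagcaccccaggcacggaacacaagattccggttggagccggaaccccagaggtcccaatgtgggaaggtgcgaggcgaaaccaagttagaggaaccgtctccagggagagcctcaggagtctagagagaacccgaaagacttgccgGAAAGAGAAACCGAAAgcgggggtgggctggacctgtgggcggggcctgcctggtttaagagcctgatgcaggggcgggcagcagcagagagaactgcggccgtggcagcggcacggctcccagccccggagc
Counted from the annotated start as base 1, Cish held a pair of STAT motif matches at bases 1 to 9 and 12 to 20, and Socs3 held 1 at bases -154 to -146. Socs1 held a pair of overlapping interferon regulatory factor matches at bases -83 to -74 and -77 to -68. Socs4 held none of the motifs searched. Among 32851 such windows of 27025 genes, 8.3% held at least 1 STAT match and 0.457% at least 2, while 3.44% held at least 1 interferon regulatory factor match and 0.225% at least 2. The kappa-B consensus (in 8.46% of all windows), the AP-1 motif TGANTCA (7.81%), the cAMP response motif TGACGTCA (1.79%) and the TATA box TATAAA (13.6%) were not matched in any of the 4 windows. A match is a description of letters, and binding was not measured.

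**Figure D1:**
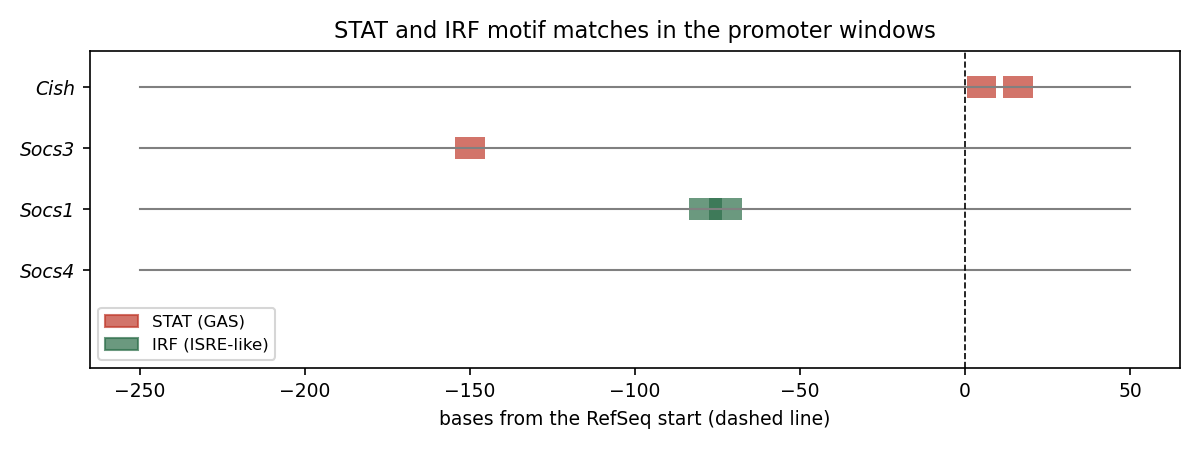
Positions of the motif matches in the 4 promoter windows, with bases from the RefSeq start on the horizontal axis and 1 line per gene. Red blocks are STAT matches and green blocks interferon regulatory factor matches. Both Cish matches lie just after the start, the Socs3 match and the overlapping Socs1 matches lie before it, and Socs4 has none.

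Library totals ran from 26867400 to 30402306 counts, so that 1 count was worth 0.0324 to 0.0367 on the scale used for all levels below unless a length is named, CPM with totals adjusted by TMM factors. The 7 macrophage markers summed to between 1760 and 1960 CPM in every library, and all 7 were expressed. Markers of T cells, B cells, neutrophils, fibroblasts and epithelial cells summed to at most 0.384 CPM in any library, and mast cell markers were at 0. Dendritic cell markers summed to 8.18 to 8.72 CPM at 0 min, 8.14 to 9.05 CPM at 30 min and 6.34 to 7.22 CPM at 60 min, nearly all of it Zbtb46, and the 3 endothelial markers summed to 1.21 to 2.24 CPM. Their part in the results below was not tested. Of the 3 libraries at 30 min, replicate 1 stood apart for the strongest member, and values without it are given beside those results.

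At 30 min, 2 of the 8 members, Socs3 and Cish, had risen and 0 had fallen (edgeR's quasi-likelihood test, Benjamini-Hochberg adjusted p under 0.05 over all 14246 genes). At an unadjusted p under 0.05 these counts were 3 and 0, and DESeq2 and limma-voom also called 2 higher and 0 lower. Over all genes tested, 4.84% were called higher and 3.35% lower. At 60 min 5 members, Socs3, Cish, Socs1, Socs4 and Socs7, were called higher than at 0 min and 0 lower, against 13.3% and 11.7% of all genes. The unadjusted counts were 5 and 1, and DESeq2 and limma-voom gave 5 and 0. When libraries were scaled by total counts alone, only Socs3, Cish and Socs1 were called higher at 60 min, and 2 members, Socs5 and Socs6, were called lower. From 30 to 60 min 4 members, Socs3, Cish, Socs1 and Socs4, were called higher and 0 lower, against 8.87% and 7.65% of all genes (unadjusted 5 and 0; 3 and 0 by DESeq2; 4 and 0 by limma-voom). The median log2 change of the members was 0.04 for 30 min, 0.3 for 60 min and 0.4 for the step between them, beside 0.01, 0 and 0 over all genes tested. Socs1 passed the filter on low counts through the later times, so the members' counts at 60 min and their medians lean to the higher side. Both comparisons with 0 min share the same 3 control libraries. Scaling bears on the background too: 59.1%, 53.1% and 53.7% of all calls were higher in the 3 comparisons, against 45.9%, 30.1% and 37.5% with total counts.

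**Figure D2:**
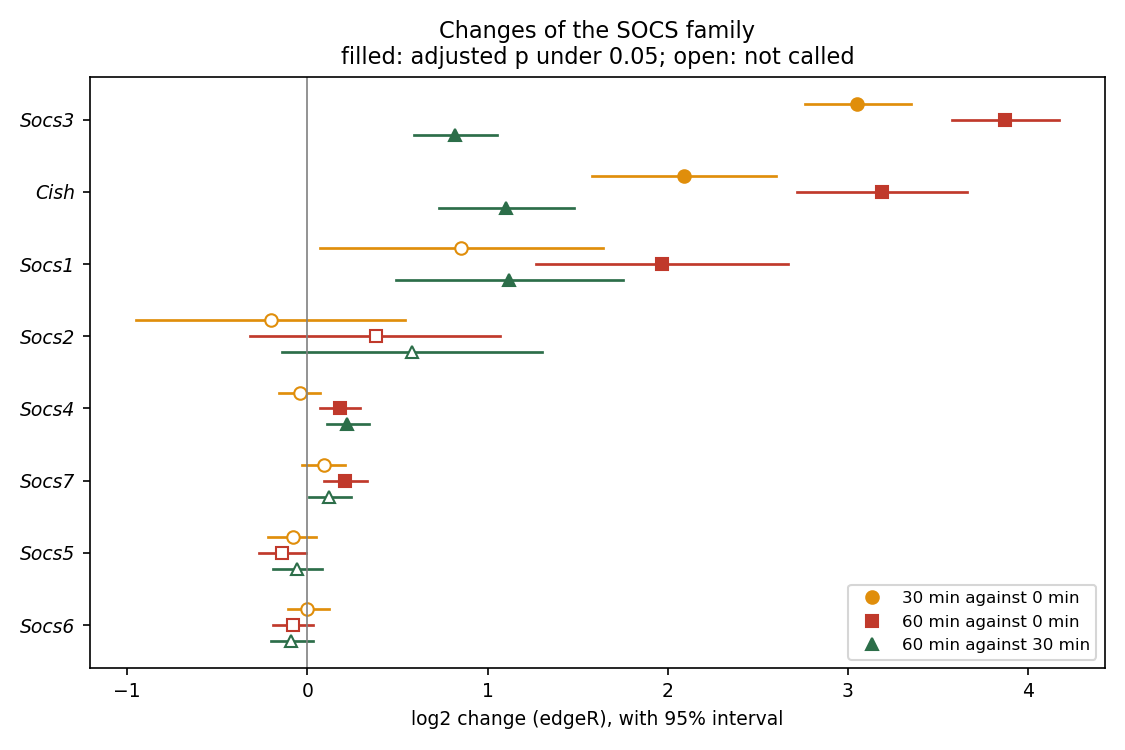
Log2 change of each SOCS member in the 3 comparisons, with 95% intervals from the edgeR fit. Filled symbols passed an adjusted p of 0.05. Socs3, Cish and Socs1 lie far to the right at 60 min, and Socs4 to Socs7 lie close to 0. Socs2 has a wide interval that includes 0 (log2 change 0.38 at 60 min, 95% interval -0.32 to 1.07).

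Socs3 was the member that rose most. Its protein binds gp130 and blocks JAK kinases bound to that receptor. The gene (ENSMUSG00000053113.3) spans chr11:117966079-117970047 on the minus strand, and its whole coding sequence of 678 bases lies in 1 exon. Its level was 8.87, 9.03 and 10.2 CPM in the 0 min libraries, 99.2, 67.4 and 67.4 CPM at 30 min, and 136, 140 and 138 CPM at 60 min. No time overlapped another, and replicate 1 was the highest of the 30 min libraries. At 30 min Socs3 averaged 78 ± 18.3 CPM, against 9.37 ± 0.736 CPM at 0 min (SD, n = 3 each), an 8.31-fold rise (log2 change 3.05, SE 0.14, edgeR adjusted p = 1.92e-09). Without replicate 1 of 30 min the log2 change was 2.84. At 60 min it averaged 138 ± 1.93 CPM, a 14.7-fold rise over 0 min (log2 change 3.87, SE 0.14, edgeR adjusted p = 5.62e-11). The further rise from 30 to 60 min was 1.77-fold (log2 change 0.82, SE 0.11, edgeR adjusted p = 9.85e-05), and the log2 change was 1.03 without replicate 1 of 30 min. Of the gain in mean level at 60 min, 53.4% was already present at 30 min. Replicate 1 of 30 min, at 99.2 CPM against 67.4 and 67.4 CPM, raised this share.

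Cish followed Socs3 at a far lower level. Its product, CIS, is known as a STAT5 target that competes for docking sites on cytokine receptors such as those for erythropoietin and IL-3. The gene (ENSMUSG00000032578.7) spans chr9:107296026-107302784 on the plus strand, with 3 coding exons. The 0 min libraries held 0.367, 0.457 and 0.454 CPM, from 10, 13 and 14 counts. The 30 min libraries held 2.24, 1.39 and 1.88 CPM and the 60 min libraries 3.54, 4.2 and 4.07 CPM. The 3 times did not overlap. Cish averaged 1.83 ± 0.426 CPM at 30 min, against 0.426 ± 0.0513 CPM at 0 min (SD, n = 3 each), a 4.26-fold rise (log2 change 2.09, SE 0.24, edgeR adjusted p = 3.76e-05). At 60 min it averaged 3.94 ± 0.351 CPM, a 9.14-fold rise over 0 min (log2 change 3.19, SE 0.22, edgeR adjusted p = 5.6e-08). From 30 to 60 min it rose 2.15-fold (log2 change 1.1, SE 0.17, edgeR adjusted p = 0.000477). Its counts summed to 37 at 0 min, 156 at 30 min and 345 at 60 min, so the ratio over 0 min was 9.23 at 60 min (95% interval from counting alone 6.56 to 13.3) and 4.29 at 30 min (2.98 to 6.31). At 30 min 40.1% of the 60 min gain was present, a share that replicate 1 of 30 min raised. Without replicate 1 of 30 min, the highest library of that time for Cish as well, the log2 changes were 1.92 at 30 min and 1.27 from 30 to 60 min.

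The 3' untranslated region of 1 coding transcript per gene was searched for the AU-rich nonamer TTATTTATT, a motif known from unstable mRNAs. Among the members only Cish held it in that transcript, and other annotated transcripts were not searched. The overlapping copies are shown with the nonamer in capitals, at bases 487 and 491 of the 1087-base region in the GENCODE M21 transcript.
Cish site at 487: tatacagtatTTATTTATTtattctcctt
Cish site at 491: cagtatttatTTATTTATTctccttgcag
Of 11090 tested coding genes with such a region, 7.08% held at least 1 nonamer and 1.44% at least 2. The shorter pentamer ATTTA occurred 3 times in Cish, 4 times in the 1474-base region of Socs3 and 0 times in the 1993-base region of Socs1, where the median over coding genes was 1 in a median length of 946 bases. Socs4, with a 5182-base region, held 17. RNA stability was not measured. The 2 antisense genes, Gm17041 and Gm17040, share 479 and 261 exon bases with Cish, and both had 0 counts in all 9 libraries. Whether the counting used strand is not given in the sources used here, so reads of these partners and of Cish could not be told apart by the counts alone.

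Socs1, the direct inhibitor of JAK1, JAK2 and TYK2 best known from interferon-gamma signalling, rose at 60 min. The gene (ENSMUSG00000038037.5) spans chr16:10782240-10785536 on the minus strand, and its 639 coding bases lie in 1 exon. It held 0.22, 0.457 and 0.292 CPM at 0 min, 0.419, 0.693 and 0.65 CPM at 30 min, and 1.05, 1.63 and 1.15 CPM at 60 min. The 60 min libraries were all above the rest, while the lowest library at 30 min lay within the range of 0 min. That lowest library was replicate 1, the one in which Socs3 and Cish were highest. At 30 min the mean was 0.587 ± 0.147 CPM, against 0.323 ± 0.121 CPM at 0 min (SD, n = 3 each), and the difference did not pass (log2 change 0.85, 95% interval 0.07 to 1.64, edgeR adjusted p = 0.192). At 60 min Socs1 averaged 1.28 ± 0.307 CPM and had risen 3.92-fold over 0 min (log2 change 1.97, SE 0.32, edgeR adjusted p = 0.000412). From 30 to 60 min it rose 2.17-fold (log2 change 1.12, SE 0.29, edgeR adjusted p = 0.017). That last call was lost with DESeq2 (adjusted p = 0.06), without replicate 1 of 30 min (0.0723) and without replicate 2 of 60 min (0.0936).

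The precision for Socs1 was set by its low counts, 28 at 0 min, 50 at 30 min and 112 at 60 min over 3 libraries each. At 0 min 2 of its 3 libraries held fewer than 10 counts, so it passed the filter through the later times. The ratio over 0 min was 3.96 at 60 min (95% counting interval 2.6 to 6.22) and 1.82 at 30 min (1.12 to 2.99). At 30 min 27.7% of its 60 min gain was present, a smaller share than for Socs3 or Cish. Replicate 1 of 30 min lowered this share and raised those of Socs3 and Cish, and the difference between these shares was not tested. The counting intervals cover counting error only.

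Socs2, which restrains growth hormone receptor signalling, was present at a similarly low level and was not called in any comparison. The gene (ENSMUSG00000020027.18) spans chr10:95385362-95417180 on the minus strand. It held 0.513, 0.667 and 0.486 CPM at 0 min, 0.699, 0.347 and 0.397 CPM at 30 min, and 0.946, 0.644 and 0.577 CPM at 60 min. All 3 times overlapped. The log2 change at 60 min was 0.38 (95% interval -0.32 to 1.07, edgeR adjusted p = 0.448), an interval that holds both no change and a rise of up to 1.07 on the log2 scale. At 30 min it was -0.2 (-0.95 to 0.54, adjusted p = 0.798). Summed counts were 48 at 0 min, 41 at 30 min and 63 at 60 min, which gave a ratio of 1.3 at 60 min over 0 min (counting interval 0.878 to 1.93).

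**Figure D3:**
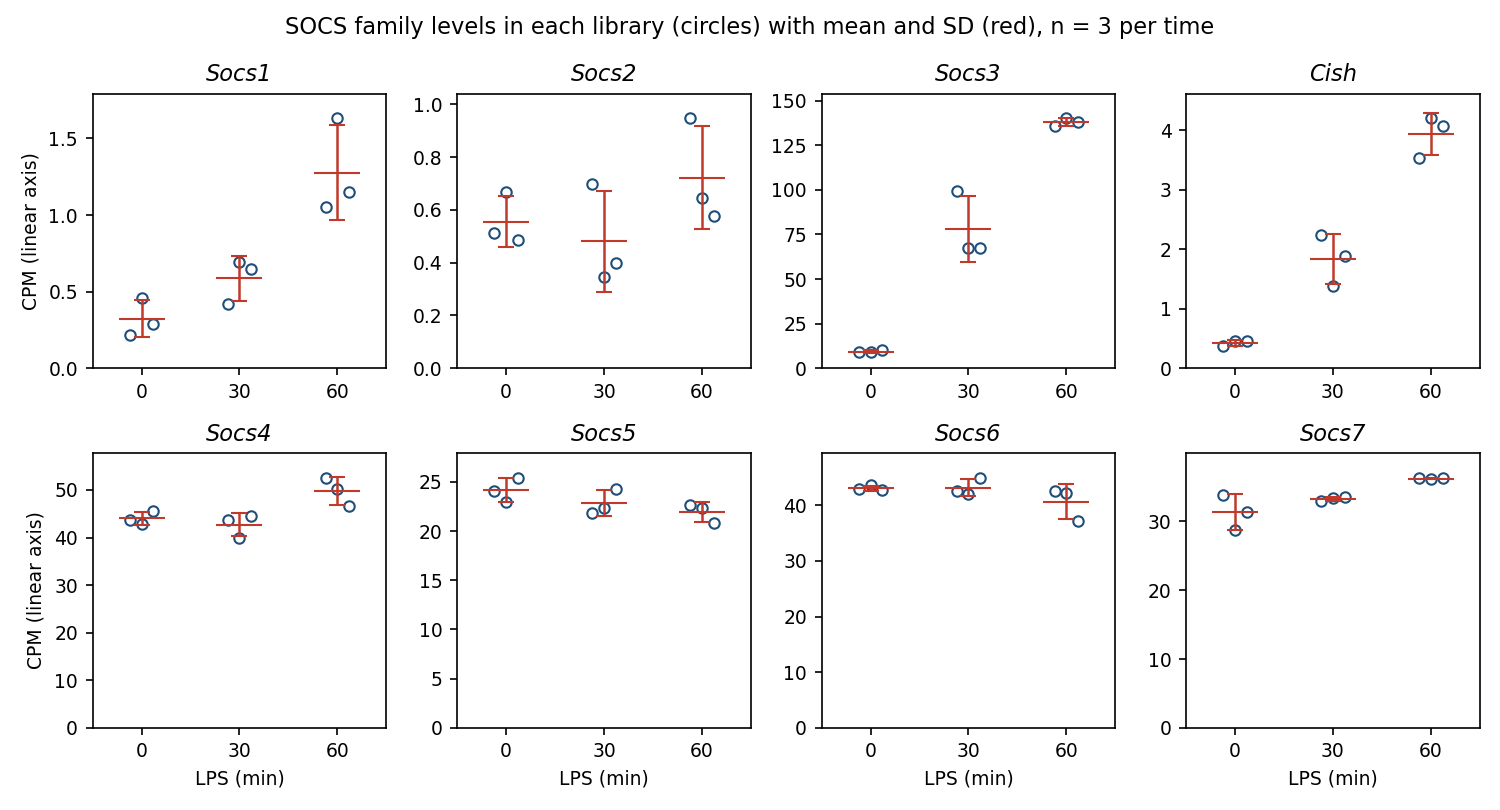
Level of each SOCS member in CPM on linear axes that start at 0, with 1 circle per library and the mean and SD of 3 libraries in red. Socs3 and Cish separate at all 3 times, Socs1 separates at 60 min, Socs2 overlaps throughout, and Socs4 to Socs7 move within a narrow band.

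Socs4 to Socs7 carry long N-terminal regions and are less tied to cytokine induction. Socs4 (ENSMUSG00000048379.9, chr14:47276931-47296102, plus strand) is known, with Socs5, for limiting signalling by the EGF receptor. It held 43.7, 42.9 and 45.5 CPM at 0 min, 43.6, 40 and 44.5 CPM at 30 min, and 52.5, 50.2 and 46.7 CPM at 60 min. The 60 min libraries lay above all others by a small margin. Socs4 averaged 49.8 ± 2.92 CPM at 60 min, against 44 ± 1.35 CPM at 0 min (SD, n = 3 each), a 1.13-fold rise (log2 change 0.18, SE 0.05, edgeR adjusted p = 0.0214) that was not called under scaling by total counts alone (log2 change 0.11, adjusted p = 0.144). The call was also lost without replicate 1 or 2 of 0 min (adjusted p = 0.0651 and 0.0686) and without replicate 1 or 2 of 60 min (0.121 and 0.0681). From 30 to 60 min it rose 1.17-fold (log2 change 0.22, SE 0.05, edgeR adjusted p = 0.00849), and this call was lost without replicate 2 of 30 min (0.0549). At 30 min against 0 min the log2 change was -0.04 (95% interval -0.16 to 0.07, adjusted p = 0.69).

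Socs7, an adaptor-like member reported to bind insulin receptor substrates, was the other gene of this group called at 60 min. The gene (ENSMUSG00000038485.5) spans chr11:97362551-97398542 on the plus strand and has 9 coding exons, where Socs1, Socs3, Socs4, Socs5 and Socs6 have 1. It held 33.9, 28.7 and 31.4 CPM at 0 min, 32.9, 33.4 and 33.5 CPM at 30 min, and 36.3, 36.1 and 36.3 CPM at 60 min. The 60 min libraries were nearly equal and above all others. Socs7 averaged 36.2 ± 0.101 CPM at 60 min, against 31.3 ± 2.61 CPM at 0 min (SD, n = 3 each), a 1.16-fold rise (log2 change 0.21, SE 0.05, edgeR adjusted p = 0.0114) that was not called with total counts (log2 change 0.14, adjusted p = 0.0702). At 30 min the log2 change was 0.09 (95% interval -0.03 to 0.21, adjusted p = 0.399), and from 30 to 60 min it was 0.12 (adjusted p = 0.16).

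Socs5 (ENSMUSG00000037104.9, chr17:87107679-87137839, plus strand) was not called. It held 24.1, 23 and 25.4 CPM at 0 min, 21.8, 22.4 and 24.3 CPM at 30 min, and 22.7, 22.4 and 20.8 CPM at 60 min. The 60 min libraries lay just under those of 0 min, with a log2 change of -0.14 (95% interval -0.27 to -0.01, edgeR adjusted p = 0.124), which was called lower with total counts (-0.21, adjusted p = 0.0274).

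Socs6, which binds the receptor kinase KIT, had the smallest log2 change of the 8 members at 30 min. It held 42.9, 43.6 and 42.7 CPM at 0 min, 42.6, 42.1 and 44.9 CPM at 30 min, and 42.6, 42.3 and 37.1 CPM at 60 min. Its log2 change was 0 at 30 min (95% interval -0.11 to 0.12, edgeR adjusted p = 0.975) and -0.08 at 60 min (-0.19 to 0.03, adjusted p = 0.285), and the 60 min value was called lower with total counts (-0.15, adjusted p = 0.0473). Replicate 3 was the low library at 60 min. The annotated span of Socs6 overlaps 3 processed pseudogenes that share no exon base with it and had 0 to 3 counts per library.

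The authors' deposited tables, read with 0 min as the baseline from the sign of their values, called the same members as the fit used here. The authors' deposited table for 30 min lists log2 fold changes of 3.05 for Socs3 (adjusted p = 7.84e-49), 2.1 for Cish (5.31e-06) and 0.86 for Socs1 (0.549). The authors' deposited table for 60 min lists 3.88 for Socs3, 3.21 for Cish (adjusted p = 9.19e-22), 1.98 for Socs1 (0.000198), 0.18 for Socs4 (0.0393) and 0.21 for Socs7 (0.0326), with Socs2, Socs5 and Socs6 not called (0.288 to 0.685).

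To set the members beside each other, CPM was divided by the length of all annotated exons of a gene in kilobases. At 0 min Socs4 was the highest at 6.4 ± 0.197 CPM per kb (SD, n = 3), followed by Socs7 at 4.31 ± 0.359, Socs6 at 3.79 ± 0.0402, Socs5 at 3.77 ± 0.184 and Socs3 at 3.24 ± 0.255 CPM per kb. The libraries of Socs6 and Socs5 overlapped, while the other neighbours in this order did not. Socs1, Cish and Socs2 were far lower, at 0.111 ± 0.0417, 0.0663 ± 0.00799 and 0.0583 ± 0.0102 CPM per kb, and the ranges of Cish and Socs2 overlapped, with Socs1 above both. At 60 min Socs3 led at 47.7 ± 0.669 CPM per kb, followed by Socs4 at 7.25 ± 0.424 and Socs7 at 4.98 ± 0.0139 CPM per kb. Socs6 at 3.58 ± 0.271 and Socs5 at 3.42 ± 0.165 CPM per kb overlapped, as did Cish at 0.613 ± 0.0546 and Socs1 at 0.439 ± 0.106 CPM per kb. Socs2 was the lowest at 0.0758 ± 0.0207 CPM per kb.

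The order among the steady members depended on the length used. With the length of 1 coding transcript per gene, a choice added after the data were seen, Socs6 came first at 0 min at 7.13 CPM per kb, ahead of Socs4 at 6.4, Socs5 at 5.2, Socs7 at 4.46 and Socs3 at 3.67 CPM per kb. By that length Socs2 (0.25 CPM per kb) lay above Cish (0.149) and Socs1 (0.111). At 60 min Socs3 was first by either length, at 54 CPM per kb by the coding transcript against 7.25 CPM per kb for Socs4.

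Summed over the family, the level per kb of all exons was 21.8 ± 0.697 at 0 min, 45.7 ± 6.28 at 30 min and 68 ± 1.09 CPM per kb at 60 min (SD, n = 3 each). Socs3 made up 14.9% ± 0.848 of this sum at 0 min, 58.6% ± 5.5 at 30 min and 70.1% ± 0.933 at 60 min. Replicate 1 raised both the sum and the Socs3 share at 30 min. Its sum was 52.9 CPM per kb, against 41.4 and 42.7 CPM per kb in replicates 2 and 3. Socs4 made up 29.4% at 0 min, 13.7% at 30 min and 10.6% at 60 min, although its own level was not lower at 60 min. Cish made up 0.902% and Socs1 0.644% at 60 min. These shares depend on the length used: by 1 coding transcript per gene, also added after the data were seen, Cish made up 1.73%, Socs1 0.548% and Socs3 67.5% ± 1.04 at 60 min, and Socs3 13.4% ± 0.782 at 0 min. Such shares describe RNA and not protein.

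**Figure D4:**
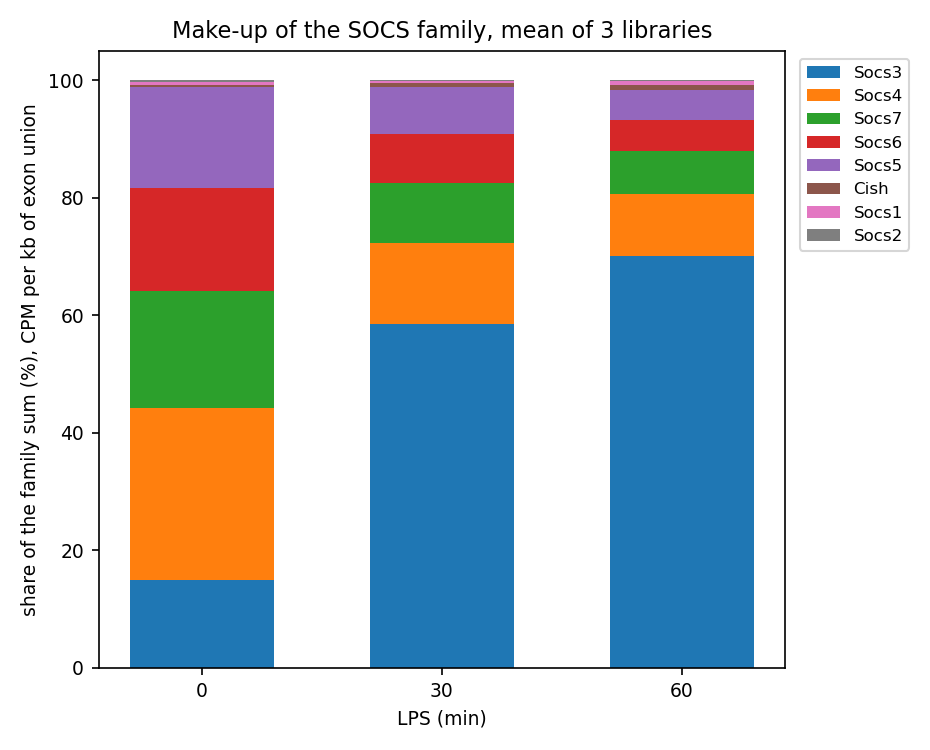
Share of each member in the family's summed level (CPM per kb of all annotated exons), as the mean of 3 libraries at 0, 30 and 60 min. Socs3 is 14.9% of the sum at 0 min and 70.1% at 60 min.

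Across the 9 libraries, which share the 3 time groups, log2 CPM of Socs3 and Cish had a Pearson r of 0.983, Socs1 and Cish 0.885 and Socs1 and Socs3 0.829. Socs5 was the member that ran most against Socs3 (r = -0.69). Given as a description over 9 libraries, the genes most like Socs3 among 11312 tested coding genes were Bcl2l11, which encodes the apoptosis activator BIM (r = 0.999), the C-type lectin Clec4e (0.999), the nuclear protein Csrnp1 (0.999), the LPS co-receptor Cd14 (0.999) and the insulin receptor substrate Irs2 (0.998). Clec4e averaged 29, 250 and 483 CPM at 0, 30 and 60 min, and Cd14 22.3, 88.9 and 136 CPM. The genes most like Cish were the transporter Slc15a3 (r = 0.996), the inflammasome sensor Nlrp3 (0.996), the small Maf factor Maff (0.995), the phosphate transporter Slc20a1 (0.995) and the depalmitoylase Abhd17c (0.995). Nlrp3 averaged 30.5, 111 and 237 CPM at 0, 30 and 60 min, and Maff 2.43, 16.1 and 46.9 CPM. Those most like Socs1 were Tjap1 (r = 0.974), Klhl12 (0.972), P2ry10b (0.963), Taf7 (0.962) and the deubiquitinase gene Otud1 (0.959). Otud1 averaged 2.5, 2.72 and 3.7 CPM at these times. Socs1 held only 6 to 48 counts per library, so counting error bears on which genes came out as most like Socs1. With log2 CPM, likeness ignores the size of a change, and Tjap1 moved only between 27.2 CPM at 0 min and 32.3 CPM at 60 min.

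Of 20 cytokine ligands that act through JAKs and STATs, 9 were expressed enough to be tested, and 11 were not. Il6, Lif, Il10, Csf2 and Csf3 had between 1 and 9 counts at 0 min over 3 libraries, and Il23a had 33 (0.384 ± 0.217 CPM, SD). All of these passed the filter through the later times. The counts over the tested ligands therefore lean to the higher side, and no list median is given. At 30 min 6 rose and 0 fell by edgeR (7 and 0 at an unadjusted p under 0.05; 5 and 0 by both DESeq2 and limma-voom), beside 4.84% and 3.35% of all genes. At 60 min 8 rose and 0 fell (8 and 0 unadjusted and by both other tools), beside 13.3% and 11.7% of all genes, and Il15 was not called (log2 change 0.1). From 30 to 60 min 4 were called higher and 1, Osm, lower, beside 8.87% and 7.65% of all genes. Osm was still above 0 min at both times, with means of 5.84, 66.1 and 45.4 CPM at 0, 30 and 60 min. Its log2 change over 0 min was 3.5 at 30 min (edgeR adjusted p = 2.54e-10) and 2.96 at 60 min (adjusted p = 5.67e-10). Il6 had 3 counts at 0 min, 151 at 30 min and 219 at 60 min over 3 libraries each, a ratio at 60 min over 0 min of 72.2 (95% counting interval 24.4 to 353). Lif, like IL-6 a ligand of gp130, had 4 counts at 0 min, 146 at 30 min and 174 at 60 min, a ratio of 43 at 60 min (16.5 to 160). Il10 had 9 counts at 0 min, 134 at 30 min and 244 at 60 min, a ratio of 26.8 at 60 min (13.9 to 59.4). Csf3, which encodes G-CSF, had 1 count at 0 min, 8 at 30 min and 142 at 60 min, a ratio at 60 min over 0 min of 140 with an interval of 24.8 to 5590. Ifnb1, the interferon-beta gene, was not tested, with 0 counts at 0 and 30 min and 4 at 60 min.

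Of 26 receptor chains that signal through JAKs, 19 were tested. At 30 min 7 rose and 0 fell by edgeR (8 and 1 unadjusted; 6 and 0 by DESeq2 and by limma-voom), and at 60 min 10 rose and 2 fell, with list medians of 0.13 and 0.16. The shares over all genes were 4.84% higher and 3.35% lower for 30 min, and 13.3% and 11.7% for 60 min, so the 2 that fell are a share near that of all genes. The largest rises at 60 min were those of Il7r (log2 change 2.16, 6.22 against 1.39 CPM at 0 min), the IL-10 receptor chain Il10ra (1.14, 31.6 against 14.3 CPM), Csf2rb2 (1.11, 57.8 against 26.8 CPM) and Csf2rb (0.95, 190 against 98.7 CPM), the last of which encodes a shared chain of the GM-CSF, IL-3 and IL-5 receptors. The edgeR adjusted p of these 4 ran from 2.15e-09 to 5.02e-07. Csf2rb and Csf2rb2 are close paralogs whose shared reads RSEM divides by estimate, so their separate values are uncertain. At 30 min Il7r had also passed (log2 change 0.75, adjusted p = 0.0316), but that call was lost under 7 of 17 alternatives. The 2 chains that fell at 60 min, Il6ra and Il6st, encode parts of the IL-6 receptor and fall outside the rule for named genes, being chosen after their values were seen. Il6ra averaged 79.8 CPM at 60 min, against 103 CPM at 0 min (log2 change -0.37, edgeR adjusted p = 2.43e-05), and Il6st 160 CPM, against 189 CPM at 0 min (-0.24, adjusted p = 0.000315). Both kept their calls and directions under all alternatives run.

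Of 11 JAK and STAT genes, 10 were tested. At 60 min Stat2, which acts downstream of type I interferon, fell to 7.01 ± 0.325 CPM, against 14.6 ± 0.889 CPM at 0 min (SD, n = 3 each; log2 change -1.06, edgeR adjusted p = 9.66e-08), and it was already lower at 30 min (-0.38, adjusted p = 0.00414). Stat5a also fell at 60 min (-0.21, adjusted p = 0.00476). Jak2 (0.4, adjusted p = 0.0042), Tyk2 (0.28, 0.00321) and Jak1 (0.11, 0.0325) rose at 60 min, and the call of Jak1 was lost under 9 of 17 alternatives. Stat5b rose at 30 min (0.16, adjusted p = 0.0158), a call lost under 5 of 17 alternatives, and was lower at 60 min than at 30 min (-0.22, adjusted p = 0.000955). Stat5a and Stat5b are also close paralogs, with the same uncertainty. Stat3 (log2 change 0 at 60 min, adjusted p = 0.993) and Stat6 (0.02, 0.796) were not called. The list had 1 higher and 1 lower call at 30 min, 3 and 2 at 60 min, and medians of 0.06 and 0.01. With 10 genes tested, these counts are too few to say whether they differ from the shares over all genes. Those shares were 4.84% and 3.35% at 30 min and 13.3% and 11.7% at 60 min.

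Few calls were made among other brakes on the pathway, such as the phosphatases and PIAS proteins. Of 13 tested, 0 rose and 0 fell at 30 min by edgeR, beside 4.84% higher and 3.35% lower of all genes. The unadjusted counts were also 0 and 0, as were those of DESeq2 and limma-voom. At 60 min 1 rose, the phosphatase gene Ptpn1 (log2 change 0.12, adjusted p = 0.0457, lost under 9 of 17 alternatives), and 1 fell, Ptpn6, which encodes SHP-1 (-0.17, adjusted p = 0.00378), beside 13.3% and 11.7% of all genes. The list medians were 0.01 and 0. In a list of 13, the counts at both times are too few to tell apart from the shares over all genes. Ptpn1 and Ptpn6 lie under the 1.5-fold change of the naming rule and were named after their values were seen. So were the genes with smaller changes in the next paragraph.

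Among 9 elongin and cullin partners of the SOCS box, 0 were called at 30 min by edgeR, beside 4.84% higher and 3.35% lower of all genes. The unadjusted counts were 2 higher and 0 lower, and DESeq2 and limma-voom gave 0 and 0. At 60 min 3 rose and 0 fell by edgeR (3 and 0 unadjusted; 2 and 0 by DESeq2, 3 and 0 by limma-voom, 2 and 1 with total counts), beside 13.3% and 11.7% of all genes. They were the ubiquitin ligase Arih2 (log2 change 0.35, adjusted p = 0.00101), the NEDD8-conjugating enzyme Ube2f (0.28, 0.000118) and Cul2 (0.15, 0.0305, lost under 8 of 17 alternatives). Of 26 other SOCS-box genes 15 were tested, and at 60 min 2 rose and 3 fell, beside 13.3% and 11.7% of all genes. The largest changes were the falls of Asb2, which averaged 1.76 CPM at 60 min against 3.56 CPM at 0 min (log2 change -1.02, edgeR adjusted p = 5.64e-05), and Asb10 (3.2 against 5.38 CPM, -0.75, adjusted p = 0.000672). Of 6 tested genes whose products were reported to bind SOCS proteins, 1 rose and 0 fell at 30 min, beside 4.84% and 3.35% of all genes. At 60 min 3 of them rose and 1 fell, beside 13.3% and 11.7% of all genes. Irs2, whose protein SOCS1 and SOCS3 are known to target for degradation, averaged 28.3 CPM at 0 min, 84.3 CPM at 30 min and 118 CPM at 60 min (log2 change 2.06 at 60 min, edgeR adjusted p = 2.35e-11, and 1.58 at 30 min, adjusted p = 8.95e-10).

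**Figure D5:**
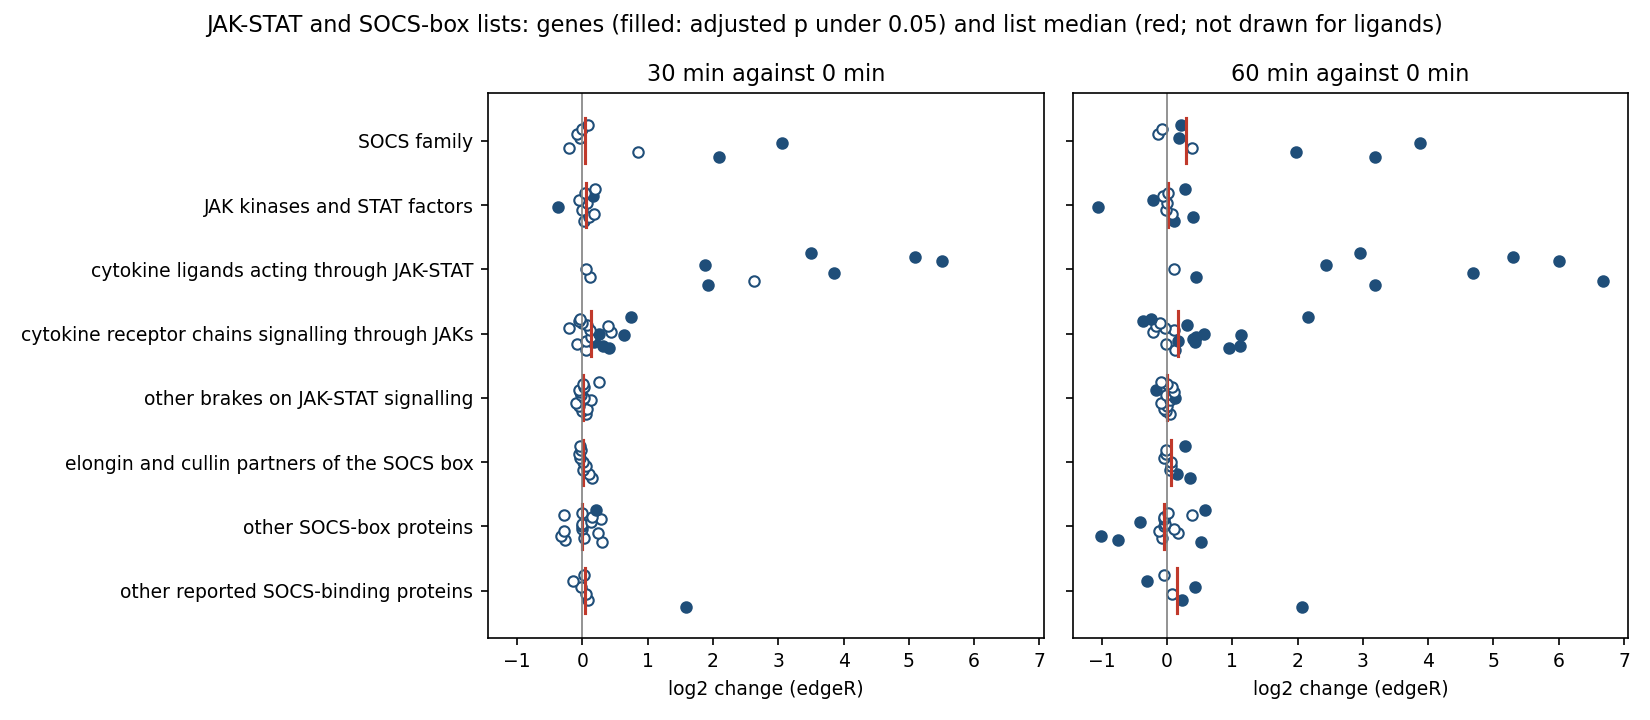
Log2 change of every tested gene in the SOCS family and 7 related lists, at 30 min (left) and 60 min (right) against 0 min, with list medians as red lines and genes past an adjusted p of 0.05 filled. No median is drawn for the ligands, most of which passed the filter on low counts through the later times. At 60 min Irs2 (2.06) and Stat2 (-1.06) lie apart from the rest of their lists.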

How the data were processed

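RNA of 9 libraries was sequenced after library preparation with a stranded total RNA kit with ribosomal depletion, per the labels' protocols. The authors deposited expected counts per gene estimated with RSEM 1.3.1 after alignment with STAR 2.7.0f to mm10, per the submitters' processing notes; the sources used here do not state annotation or strand setting. The authors also deposited tables of log2 fold changes with p-values, per the file headers. Between 5.04% and 5.32% of expected counts per library were not whole and were rounded. All 9 libraries entered 1 quasi-likelihood fit (edgeR 4.0.16, R 4.3.3, TMM factors 0.9705 to 1.034, filterByExpr with a minimum count of 10), with a biological coefficient of variation of 5.2% and Benjamini-Hochberg adjustment over 14246 genes. The fit was tested on simulated data with 1.5-fold and 2-fold changes in genes of higher counts. The low counts of Socs1, Socs2 and Cish at 0 min and the small changes of Socs4 and Socs7 lay outside that setting. Alternatives were DESeq2 1.42.0, limma-voom (limma 3.58.1), other scalings and filters, a replicate block and leaving out each library. Gene models and 3' untranslated regions came from GENCODE M21 (GRCm38), promoters from RefSeq. The members and lists were chosen with earlier results of these data known. Named list genes passed an adjusted p of 0.05 with at least a 1.5-fold change, at most the 4 largest per list, plus JAK and STAT genes. Other list genes named in the text, such as Osm, Il15 and Ifnb1, fall outside this rule. Like genes are the 5 with the highest Pearson r for each member changed at least 2-fold. Whether the replicates came from separate cultures beyond the wording of the design text is not stated. The p-values therefore weigh a change against the variation among these libraries only.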

Additional observations from a re-analysis of the deposited data

Results flagged for a closer look

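For 4 members the change from 0 min differed between 60 and 30 min by a test of the difference itself, which is the comparison of 60 with 30 min. The log2 difference was 0.82 for Socs3 (edgeR adjusted p = 9.85e-05), 1.1 for Cish (0.000477), 1.12 for Socs1 (0.017) and 0.22 for Socs4 (0.00849), higher at 60 min in each case. All 3 libraries at 60 min were above all 3 at 30 min for each of the 4. Socs3 and Cish were called higher at both times, and Socs1 and Socs4 at 60 min alone. The call of Socs1 was lost with DESeq2 and without either of 2 libraries, and that of Socs4 without 1 library.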

How the results depend on the processing

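Socs3 and Cish kept direction and call in all 3 comparisons under every alternative run, with log2 changes at 60 min of 3.81 to 3.94 and 3.1 to 3.26, and at 30 min of 2.84 to 3.15 and 1.92 to 2.26. Socs1 at 60 min ran from 1.76 to 2.29 (adjusted p at most 0.00332); a minimum count of 50 removed Socs1 and Socs2. Over 402 combinations of a member's result and an alternative, 381 kept direction and side of the threshold, 10 lost a call, 2 gained one and 9 changed sign, all 9 near 0. Those were Socs6 at 30 min (-0.02 with total counts, -0.01 with a minimum count of 50, 0 without a filter and with only the 2 groups compared, -0.02 to 0.02 when leaving out libraries) and Socs4 at 30 min (0 without replicate 2 of 30 min, in a range of -0.07 to 0). With total counts, 3 members were higher and 2 lower at 60 min, against 5 and 0, and 3045 genes in all were lower at 60 min (1671 with TMM) and 1673 from 30 to 60 min (1090). Genes lower at 30 min numbered 477, against 757 without a filter and 290 to 523 when leaving out libraries, with 290 without replicate 1 of 0 min, 305 without replicate 3 and 310 without replicate 2 of 30 min. Neither called, Rela at 30 min (-0.02) ran from -0.06 to 0.06 when leaving out libraries, and Lif from 30 to 60 min (0.22) from -0.02 to 0.64; the cause was not tested. Replicate numbers did not pair the libraries (correlations of same-numbered deviations -0.06 to 0.01, 0 of 9 libraries closest to their own number); with the replicate block 2, 5 and 4 members were higher and 0 lower, as without it. Counts limit Socs1, Socs2 and Cish, where 1 count is 0.0324 to 0.0367 CPM.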
